A study of Mus musculus with 12 samples.

Results

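*Pklr*, *Pck1*, *G6pc*, *Fbp1*, *Slc2a2*, *Irs1*, *Irs2*, *Igfbp1* and *Ppargc1a* are 9 genes through which the liver handles glucose and answers to insulin. They were chosen by their known roles, with earlier results of these data known, and they are 9 of the 54532 genes in the expression table. All of them passed a filter of a mean of at least 1 FPKM (sequenced fragments divided by the length of the gene and scaled to the library) over the mice. The mice were male C57BL/6J animals that started their diet at 5 weeks of age and stayed on it for 26 weeks. ND-fed mice received a normal diet, and control mice received a high-fat diet. HYA-treated mice received the same high-fat diet with 1% HYA, a hydroxylated product of linoleic acid formed by bacteria of the gut. LA-treated mice received it with 1% LA, linoleic acid itself. Liver RNA of 3 mice per group was sequenced. The high-fat diet is thus shared by control, HYA-treated and LA-treated mice, and no gene was altered in any group. The time of day and the feeding state at tissue collection are not given in the sources used here.

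In the fed state, insulin acts on hepatocytes through its receptor and the adaptor proteins IRS1 and IRS2, which leads to Akt activation and keeps FOXO transcription factors out of the nucleus. Genes of gluconeogenesis and of the fasting response, among them *Pck1*, *G6pc*, *Igfbp1* and *Irs2*, are then transcribed less, whereas glycolytic genes such as *Pklr* respond to glucose through ChREBP. During fasting, glucagon and cyclic AMP act in the opposite direction, so that the mRNA of several of these genes rises and falls over a day with feeding.

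The regulatory letters best known for this response are the insulin response element, whose core reads CAAAACA. It was searched on both strands in RefSeq promoter windows of 300 bases around transcription start sites (GRCm38.p6). All 9 genes matched, with 10 windows, since *Pklr* has 2 start sites. The core was in the windows of *Igfbp1*, *G6pc*, *Irs1* and *Irs2*, which is 4 of 10 windows, against 6.28% of all 32851 windows. Because the genes were chosen for known roles that include the response to insulin, this difference cannot be read as an enrichment found here. These 4 stretches are shown because 3 of the 4 genes belong to the group with the widest spread between mice described further on. *Pck1* also belongs to that group and its window held no core, whereas *Irs1* held the core and lies outside that group. A link between core and spread was not tested. Each is written along the strand of its gene, with the core or its complement TGTTTTG and the E-box CACGTG in capitals.
Igfbp1, chr11:7197659-7197705, plus strand: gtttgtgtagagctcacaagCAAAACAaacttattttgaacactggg
G6pc, chr11:101367522-101367568, plus strand: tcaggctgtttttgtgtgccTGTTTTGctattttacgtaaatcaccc
Irs2, chr8:11008940-11008993, minus strand: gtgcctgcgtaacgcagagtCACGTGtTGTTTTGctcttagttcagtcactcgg
Irs1, chr1:82291445-82291574, minus strand: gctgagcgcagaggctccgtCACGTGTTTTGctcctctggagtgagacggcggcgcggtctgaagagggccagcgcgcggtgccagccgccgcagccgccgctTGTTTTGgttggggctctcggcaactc
The first base of the core lay at -108 in *Igfbp1*, -174 in *G6pc* and -37 in *Irs2*, counted from the RefSeq start site. RefSeq starts can differ from those of the genes in the expression table. There *Irs2*, on the minus strand, starts at chr8:11008458, and its window at 11008880 to 11009179 lies wholly upstream of that. *Irs1* held it at -111 and again at -32, and its first copy overlapped the E-box. The E-box was in the windows of *Irs1* and *Irs2* and in 7.15% of all windows. The FOXO motif TGTTTAC (3.65% of all windows) and the cyclic AMP response element TGACGTCA (1.79%) were in 0 of the 10 windows. Only these exact letters were searched. Near matches, such as TTACGTCA in the window of *Pck1*, were not counted, so the elements are not shown to be absent. A match describes letters in this window and is not shown to be a bound site.

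Depth was 17169064 to 25220880 fragments on genes per mouse, recovered from the steps of the FPKM values. The 7 hepatocyte markers found of 8 listed summed to 33526 to 49746 FPKM in every liver, whereas the 4 proximal tubule markers of the kidney, the other gluconeogenic organ, were all under 1 FPKM, with 2 of them at 0 in every mouse. The hepatocyte sum was 46913 to 49746 FPKM in ND-fed mice, 33526 to 38134 in control mice, 42529 to 44296 with HYA and 36180 to 37835 with LA, and 5 of the 7 markers fell in control against ND-fed mice. The FPKM totals of all genes differed in the same direction, and the sums are not corrected for them. These totals were 407652 to 429286 in ND-fed mice, 342146 to 368132 in control mice, 380803 to 393109 with HYA and 352290 to 361523 with LA. Stellate cell markers (7 of 7 tested) summed to 15.6 to 19.9, 38.8 to 55.2, 29.6 to 37.3 and 41.2 to 52.9 FPKM in the same order of groups, and 3 of the 7 rose and 0 fell in control against ND-fed mice. *Col1a1* (0.720 to 1.33 FPKM in ND-fed and 7.72 to 13.2 in control mice) and *Col3a1* (2.52 to 3.51 and 14.0 to 21.2 FPKM) made up most of the difference in the sum. In whole liver, fewer cells of a type and less RNA per cell cannot be told apart. The part of these shifts in the values of the 9 genes was not tested.

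Levels per gene length ordered the 9 genes from *Fbp1*, with a mean of 634 FPKM over the 12 mice and above 99.4% of tested genes, through *Pck1* (368 FPKM), *Pklr* and *G6pc* (both 140 FPKM), *Slc2a2* (75.2 FPKM) and *Igfbp1* (26.1 FPKM) to *Irs1* (3.70 FPKM), *Irs2* (3.05 FPKM) and *Ppargc1a* (1.73 FPKM). The enzymes and the transporter were thus among the abundant liver mRNAs, and the adaptors and the coactivator were scarce. *Pklr* and *G6pc* overlapped in level, as did *Irs1* and *Irs2*. Counting limited the scarce genes more. The least covered values rested on 112 fragments for *Igfbp1*, 119 for *Ppargc1a* and 144 for *Irs2*, which is a counting error of 9.45%, 9.17% and 8.33%, and the abundant genes never had fewer than 4792.

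**Figure D1:**
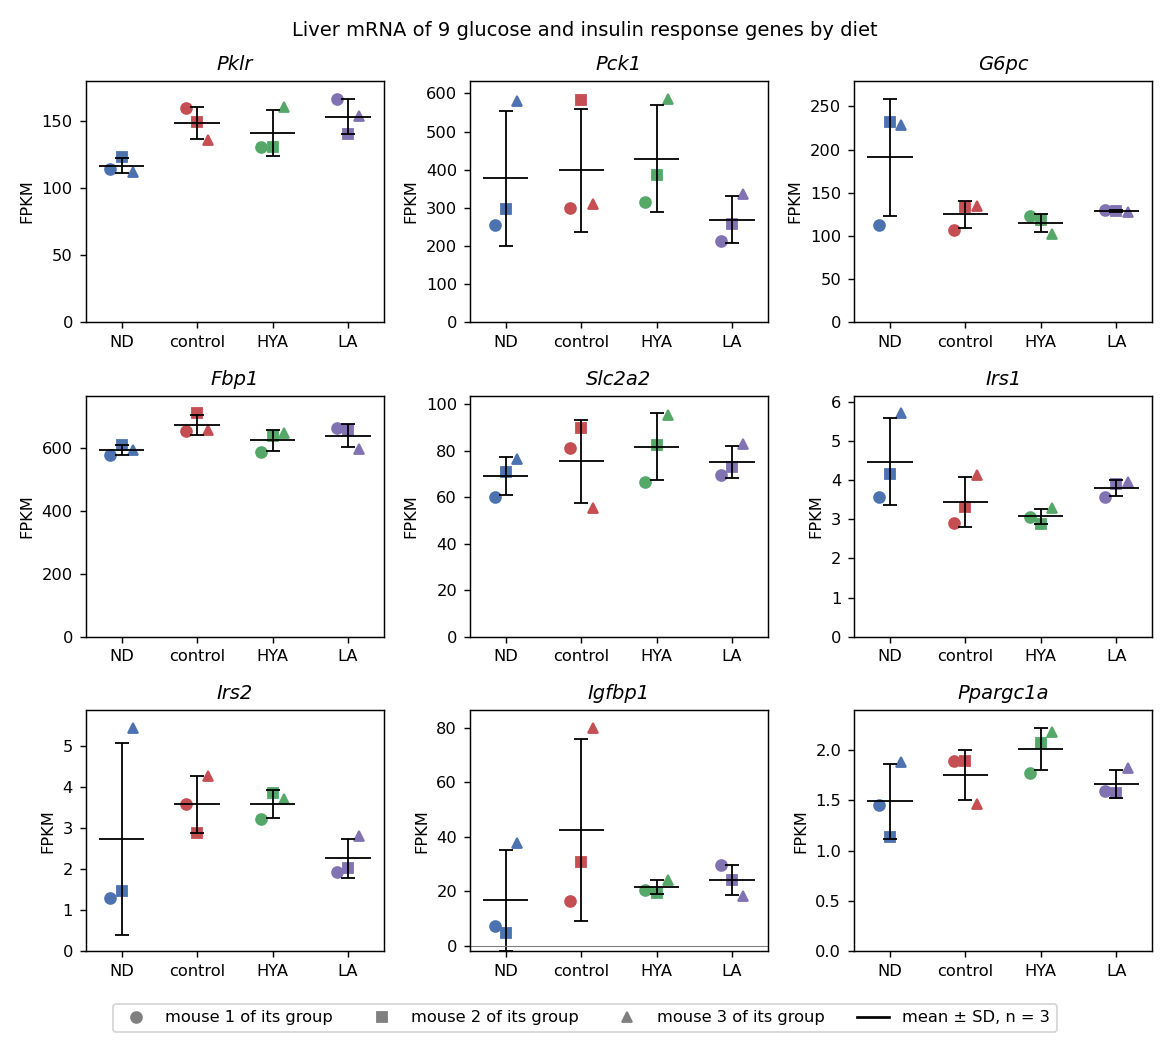
FPKM of each of the 9 genes (vertical axes, each with its own range) in the 4 diet groups (horizontal axes). Points are single mice, with 1 marker shape per mouse number, and black lines give the mean ± SD of 3 mice. *Pklr* and *Fbp1* of the ND-fed mice lie below all control mice, whereas 1 ND-fed mouse stands far above the other ND-fed mice in *Pck1*, *Irs2* and *Igfbp1*. The lower error bar of *Igfbp1* in ND-fed mice passes below 0.

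The high-fat diet was compared with the normal diet first. *Pklr* and *Fbp1* rose on the high-fat diet, and the other 7 genes did not pass the test, which was limma on log2(FPKM + 1) over 11083 genes with Benjamini-Hochberg adjustment and a threshold of 0.05. The 2 genes of 9 (16.2% of all tested genes were higher) stand beside 35.3% of all tested genes that passed in the same comparison, so calls were no more frequent among these genes than in the liver transcriptome at large. Ranges of the groups did not overlap for 2 of the 9 genes, against 45.6% of all tested genes. The median log2 fold change was 0.15 over the 9 genes and -0.043 over all tested genes. With an absolute log2 fold change above 1 as a further condition, 0 of the 9 genes passed (3.88% of all tested genes), whereas 4 had an unadjusted p under 0.05 (45.1% of all tested genes). The p-values measure the spread between these mice only.

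*Pklr* encodes the liver pyruvate kinase, which makes the last step of glycolysis. Its level was 115, 123 and 112 FPKM in the 3 ND-fed mice and 160, 150 and 136 FPKM in the control mice. HYA-treated mice had 131, 131 and 161 FPKM, and LA-treated mice 167, 140 and 154 FPKM. Every mouse on a high-fat diet was above every ND-fed mouse. *Pklr* rose 1.27-fold in control against ND-fed mice (log2 fold change 0.35, SE 0.096, 95% confidence interval 0.13 to 0.56, limma with Benjamini-Hochberg adjustment, adjusted p = 0.0176). It rose 1.31-fold in LA-treated against ND-fed mice (log2 fold change 0.39, SE 0.096, limma, adjusted p = 0.0107). In HYA-treated against ND-fed mice the log2 fold change was 0.27 with an adjusted p of 0.0859, which missed the threshold. The call against control was lost without control mouse 1 (log2 fold change 0.29, limma adjusted p = 0.0698) and without ND-fed mouse 3 (0.32, adjusted p = 0.0561). Rescaled to TPM, the same difference was 0.58, while the median of all genes moved from -0.043 to 0.18. Exons of *Pklr* share 711 bases with *Hcn3* on the other strand, which stood at 0.20 FPKM. The genes whose profile over the 12 mice was nearest to that of *Pklr*, out of 10117 candidates, were *Gna11* and *Kdelc2*, with a root mean square difference of 0.0754 and 0.0763 on the log2 scale.

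*Fbp1* encodes fructose-1,6-bisphosphatase, an enzyme of gluconeogenesis that opposes glycolysis. It was measured at 579, 611 and 594 FPKM in ND-fed mice, 654, 711 and 658 in control mice, 587, 640 and 649 with HYA and 665, 657 and 598 with LA. The control mice were above all ND-fed and all HYA-treated mice, and LA-treated mice overlapped with every other group. *Fbp1* rose 1.13-fold in control against ND-fed mice (log2 fold change 0.18, SE 0.064, 95% confidence interval 0.040 to 0.32, limma with Benjamini-Hochberg adjustment, adjusted p = 0.0479). This call was at the threshold. It was lost when any 1 of 10 of the 12 mice was left out, with values from 0.14 to 0.20 and adjusted p-values of up to 0.138, and held without mouse 1 of the HYA group or mouse 3 of the LA group. It was larger after rescaling to TPM (0.42, adjusted p = 0.000118) and in limma-voom on recovered fragments (0.37, adjusted p = 0.000187). Both scales shift all genes upward in this comparison. In limma-voom the library size was the fragments on genes. The library scale behind the FPKM values, divided by those fragments, was 0.917 to 0.953 in ND-fed and 1.03 to 1.10 in control mice. In HYA-treated against control mice the log2 fold change was -0.11 (SE 0.064, adjusted p = 0.400), and it passed on 2 other scales, with -0.23 after rescaling to TPM (adjusted p = 0.0356) and -0.21 in limma-voom on recovered fragments (adjusted p = 0.0423). The median of all genes on the TPM scale was -0.10 in that comparison. The limma-voom scale also shifts all genes downward there, with 0.980 to 1.01 in HYA-treated mice by the same division. Nearest in profile were *Prdx2* and *Odr4*, with a root mean square difference of 0.0441 and 0.0448 on the log2 scale over the 12 mice.

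*G6pc* encodes the catalytic subunit of glucose-6-phosphatase, which frees glucose in the final step of gluconeogenesis and glycogen breakdown. Its level was 113, 232 and 228 FPKM in ND-fed mice, 107, 133 and 134 in control mice, 123, 119 and 103 with HYA and 130, 129 and 127 with LA. ND-fed mice 2 and 3 stood above all other mice, and ND-fed mouse 1 stood within the range of the high-fat groups. The log2 fold change in control against ND-fed mice was -0.54 (SE 0.23, 95% confidence interval -1.04 to -0.046, limma adjusted p = 0.0844), which missed the threshold. Without ND-fed mouse 1 it was -0.88 with an adjusted p of 0.000354, and leaving out any other mouse gave values as small as -0.37. On the TPM scale it was -0.31 (adjusted p = 0.279). The same mouse decided the call in HYA-treated against ND-fed mice, where the log2 fold change was -0.66 (adjusted p = 0.0717) with it and the adjusted p was 0.000431 without it, and in LA-treated against ND-fed mice, where it was -0.49 (adjusted p = 0.125) with it and -0.83 (adjusted p = 0.000572) without it. The latter comparison gave -0.32 without ND-fed mouse 2 and -0.33 without ND-fed mouse 3.

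*Pck1* encodes the cytosolic phosphoenolpyruvate carboxykinase, which commits carbon to gluconeogenesis. It was at 256, 297 and 579 FPKM in ND-fed mice, at 300, 583 and 311 in control mice, at 315, 387 and 586 with HYA and at 214, 257 and 335 with LA. One mouse of each of the first 3 groups stood at 579 to 586 FPKM, and all groups overlapped. The log2 fold change was 0.10 (SE 0.35) in control against ND-fed mice and its 95% confidence interval ran from -0.68 to 0.88, which spans both directions. In HYA-treated against LA-treated mice it was 0.65 (95% confidence interval -0.13 to 1.43, limma adjusted p = 0.380).

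*Slc2a2* encodes GLUT2, the glucose transporter of the hepatocyte membrane. Its level was 60.2, 70.7 and 76.3 FPKM in ND-fed mice, 81.3, 89.5 and 55.3 in control mice, 66.7, 82.5 and 95.4 with HYA and 69.6, 72.7 and 82.7 with LA. The groups overlapped throughout, and control mouse 3 was the lowest of all 12. No comparison passed the test, and log2 fold changes were 0.10 (SE 0.18) in control against ND-fed mice and 0.13 (SE 0.18) in HYA-treated against control mice.

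*Irs1* and *Irs2* encode the main adaptors of the insulin receptor in liver. *Irs1* was at 3.56, 4.16 and 5.71 FPKM in ND-fed mice, 2.90, 3.31 and 4.14 in control mice, 3.07, 2.88 and 3.28 with HYA and 3.57, 3.90 and 3.95 with LA. The HYA-treated mice were below all ND-fed and all LA-treated mice. The log2 fold change was -0.41 in HYA-treated against ND-fed mice (SE 0.13, limma adjusted p = 0.0626) and -0.29 in control against ND-fed mice (SE 0.13, adjusted p = 0.117), and neither passed. Both passed without ND-fed mouse 1 (-0.53, adjusted p = 0.0272, and -0.41, adjusted p = 0.0381) and without control mouse 3 (-0.41, adjusted p = 0.0460, and -0.40, adjusted p = 0.0481). Without ND-fed mouse 3 they were -0.25 (adjusted p = 0.166) and -0.13 (adjusted p = 0.394). On the TPM scale the difference of control against ND-fed mice was -0.12.

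*Irs2*, whose transcription falls with insulin, was at 1.30, 1.47 and 5.45 FPKM in ND-fed mice, 3.59, 2.89 and 4.27 in control mice, 3.22, 3.86 and 3.71 with HYA and 1.94, 2.04 and 2.82 with LA. ND-fed mice 1 and 2 were the lowest of all and ND-fed mouse 3 was the highest of all. LA-treated mice were below every control and every HYA-treated mouse. The log2 fold change of control against ND-fed mice was 0.45 (SE 0.32, limma adjusted p = 0.294), and it was 0.93 with an adjusted p of 0.00131 when ND-fed mouse 3 was left out, but 0.19 (adjusted p = 0.692) without ND-fed mouse 1 and 0.24 (adjusted p = 0.635) without ND-fed mouse 2. Without ND-fed mouse 3 HYA-treated against ND-fed mice moved from 0.47 (adjusted p = 0.343) to 0.95 (adjusted p = 0.00284), and LA-treated against ND-fed mice from -0.034 (adjusted p = 0.947) to 0.44 (adjusted p = 0.0472).

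The ratio of *Irs1* to *Irs2* FPKM, looked at after the values were seen and not tested, was 2.75, 2.82 and 1.05 in ND-fed mice. It was 0.808, 1.14 and 0.968 in control mice, 0.952, 0.746 and 0.885 with HYA and 1.84, 1.91 and 1.40 with LA. LA-treated mice lay above every control and every HYA-treated mouse, and ND-fed mouse 3 lay within the control range.

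*Igfbp1* encodes a secreted binding protein of insulin-like growth factors that is made by the liver and repressed by insulin. Its level was 7.35, 4.62 and 37.8 FPKM in ND-fed mice, 16.3, 30.9 and 80.1 in control mice, 20.6, 19.5 and 24.3 with HYA and 29.5, 24.3 and 18.4 with LA. The lowest and the highest mouse differed 17.3-fold, and ND-fed mouse 3 stood above all HYA-treated and LA-treated mice. The estimate in control against ND-fed mice was the largest of the 9 genes, a log2 fold change of 1.54 (SE 0.66, 95% confidence interval 0.073 to 3.01), and it missed the threshold (limma adjusted p = 0.0960). It passed in limma-voom on recovered fragments (1.79, adjusted p = 0.0472), a scale that shifts all genes upward in this comparison. Without ND-fed mouse 3 it was 2.37 with an adjusted p of 0.00673, without ND-fed mouse 2 it was 0.98 (adjusted p = 0.312) and without control mouse 3 it was 0.94 (adjusted p = 0.296). Without ND-fed mouse 3 LA-treated against ND-fed mice moved from 1.01 (adjusted p = 0.278) to 1.85 (adjusted p = 0.0243). The control mice differed more among themselves (42.5 ± 33.4 FPKM, SD, n = 3) than the HYA-treated mice (21.5 ± 2.52 FPKM), a contrast that was not tested. LA-treated mice were also close together (24.1 ± 5.59 FPKM), and ND-fed mice were not (16.6 ± 18.4 FPKM).

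*Ppargc1a* encodes PGC-1α, a coactivator that raises gluconeogenic and mitochondrial genes in fasting. It was at 1.45, 1.14 and 1.88 FPKM in ND-fed mice, 1.89, 1.90 and 1.46 in control mice, 1.78, 2.08 and 2.18 with HYA and 1.59, 1.57 and 1.82 with LA. HYA-treated mice held the 2 highest values, and all pairs of groups overlapped. The log2 fold change in HYA-treated against ND-fed mice was 0.28 (SE 0.11, limma adjusted p = 0.110), and it passed in limma-voom on recovered fragments (0.54, adjusted p = 0.0475) and without ND-fed mouse 3 (0.39, adjusted p = 0.0341), but was 0.18 (adjusted p = 0.326) without ND-fed mouse 2. The limma-voom scale shifts all genes upward in this comparison as well, but the abundant *Fbp1* (0.072 to 0.16) and *Pklr* (0.27 to 0.36) moved less. The log2(FPKM + 1) scale also understates changes of scarce genes such as *Ppargc1a*.

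**Figure D2:**
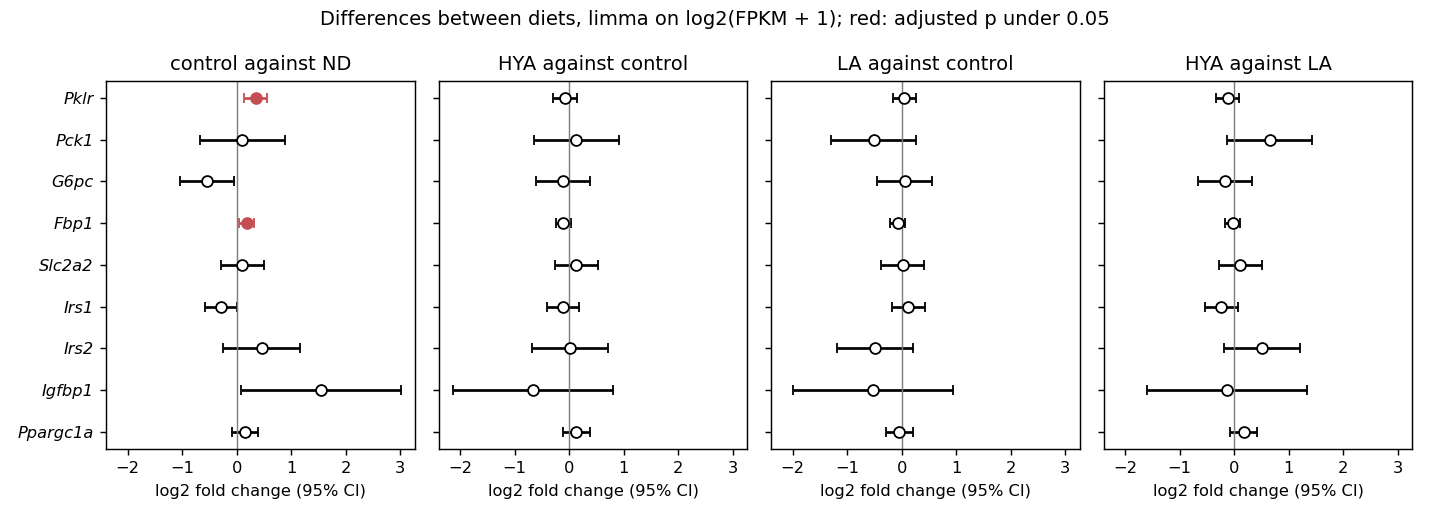
Log2 fold change with its 95% confidence interval (horizontal axis) of each of the 9 genes (vertical axis) in 4 comparisons. Filled red points have an adjusted p under 0.05, which are *Pklr* and *Fbp1* in control against ND-fed mice, and the widest intervals are those of *Igfbp1*.

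The addition of HYA or LA to the high-fat diet was compared next. None of the 9 genes passed the limma test in HYA-treated against control mice, where 2.8% of all tested genes passed, and 0 had an unadjusted p under 0.05 (18.5% of all tested genes), whereas limma-voom called 1 (*Fbp1*). Log2 fold changes ran from -0.67 (SE 0.66) for *Igfbp1* to 0.13 (SE 0.11) for *Ppargc1a*, with 4 above and 5 below 0. The lowest adjusted p was 0.400. The intervals were narrow for *Pklr* (-0.29 to 0.13), *Fbp1* (-0.25 to 0.032) and *Ppargc1a* (-0.11 to 0.38), and wide for *Pck1* (-0.65 to 0.91), *Irs2* (-0.69 to 0.71) and *Igfbp1* (-2.14 to 0.80). Ranges did not overlap for 1 gene, *Fbp1*, against 21.6% of all tested genes.

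In LA-treated against control mice 0 of the 9 genes passed in limma and in limma-voom, 0 had an unadjusted p under 0.05 (2.65% of all tested genes), and the share of all tested genes that passed was 0%. Log2 fold changes were between -0.53 (*Igfbp1*) and 0.12 (*Irs1*). *Irs2* was the 1 gene whose ranges did not overlap (log2 fold change -0.49, 95% confidence interval -1.19 to 0.21), against 7.55% of all tested genes.

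HYA and LA, its parent compound, were given at the same share of the diet and for the same time, so they can be set against each other directly. The 9 pairs of values gave 0 calls in limma and in limma-voom, where 0.487% of all tested genes passed in limma, and 0 genes had an unadjusted p under 0.05 (17.2% of all tested genes). Ranges did not overlap for *G6pc*, *Irs1* and *Irs2*, which is 3 of 9 genes against 25.2% of all tested genes. Log2 fold changes of HYA-treated against LA-treated mice were -0.17 for *G6pc* (95% confidence interval -0.67 to 0.33), -0.24 for *Irs1* (-0.53 to 0.059) and 0.50 for *Irs2* (-0.20 to 1.20). The other genes lay between -0.14 for *Igfbp1* and 0.65 for *Pck1*. These intervals do not show that both fatty acids act alike on the 9 genes.

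Against ND-fed mice, HYA-treated mice had 0 of 9 genes called in limma, beside 16.6% of all tested genes, with 4 genes at an unadjusted p under 0.05, beside 32.2% of all tested genes (*Pklr*, *G6pc*, *Irs1* and *Ppargc1a*) and 2 called by limma-voom (*Pklr* and *Ppargc1a*). Ranges did not overlap for *Pklr* and *Irs1*, against 35.9% of all tested genes. LA-treated mice had 1 gene called against ND-fed mice in limma, *Pklr*, beside 31.1%, 2 in limma-voom with *Fbp1* added (0.28, adjusted p = 0.00140), and 1 at an unadjusted p under 0.05, beside 41.8%. *Pklr* was also the 1 gene whose ranges did not overlap, against 47% of all tested genes. These comparisons share the ND-fed mice with that of control against ND-fed mice.

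The spread between mice on the same diet differed widely among the 9 genes. The SD within groups on the log2(FPKM + 1) scale had a median of 0.11 over the 11083 tested genes. It was 0.94 for *Igfbp1*, 0.50 for *Pck1*, 0.45 for *Irs2* and 0.32 for *G6pc*, and these 4 genes lay at the percentiles 99.7, 97.5, 97.0 and 93.6 of all tested genes. *Slc2a2* (0.25), *Irs1* (0.18) and *Ppargc1a* (0.14) followed at the percentiles 89.4, 79.4 and 67.1. The 2 called genes were the steadiest of the 9, with *Pklr* at 0.13 (percentile 58.5) and *Fbp1* at 0.069 (percentile 15.9). Among genes of a similar level (within 1.5-fold of the mean FPKM), *Igfbp1* was at the percentile 99.6, *Irs2* at 97.2, *Pck1* at 94.2 and *G6pc* at 90.7.

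**Figure D3:**
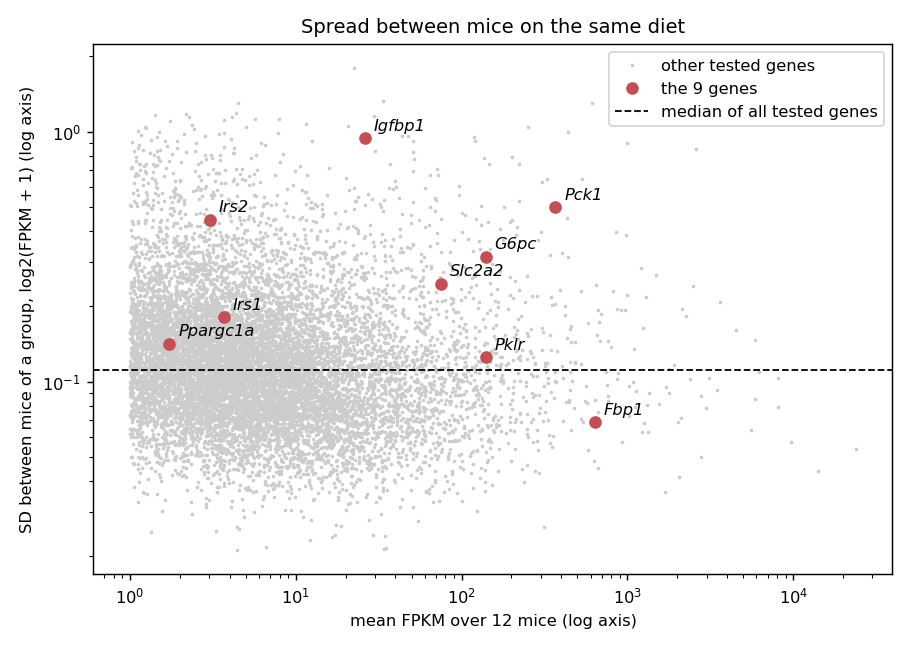
SD between mice of a group in log2(FPKM + 1) (vertical axis, log scale) against mean FPKM over the 12 mice (horizontal axis, log scale), with 1 grey point per tested gene and the 9 genes in red. *Igfbp1*, *Pck1*, *Irs2* and *G6pc* lie far above the dashed median of all tested genes, and *Fbp1* lies below it.

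Single mice stood out in several genes at once. ND-fed mouse 3 was the highest of its group in 6 of the 9 genes (*Pck1*, *Slc2a2*, *Irs1*, *Irs2*, *Igfbp1* and *Ppargc1a*), and ND-fed mouse 1 was the lowest in 6. Over all tested genes, ND-fed mouse 3 was the highest of its group in 34.5%. HYA-treated mouse 3 was the highest in 7 of 9 genes, all but *G6pc* and *Irs2*, beside 37.2% of all tested genes. In ND-fed mouse 3 the deviation from the group mean was 1.67 for *Igfbp1*, 0.96 for *Irs2* and 0.71 for *Pck1* on the log2 scale, and -0.052 for *Pklr*. In the control group the high mouse was not the same for all of these genes. Control mouse 3 was the highest in *G6pc*, *Irs1*, *Irs2* and *Igfbp1*, and control mouse 2 in *Pck1*, *Fbp1*, *Slc2a2* and *Ppargc1a*. These counts were made after the values were seen and were not tested.

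**Figure D4:**
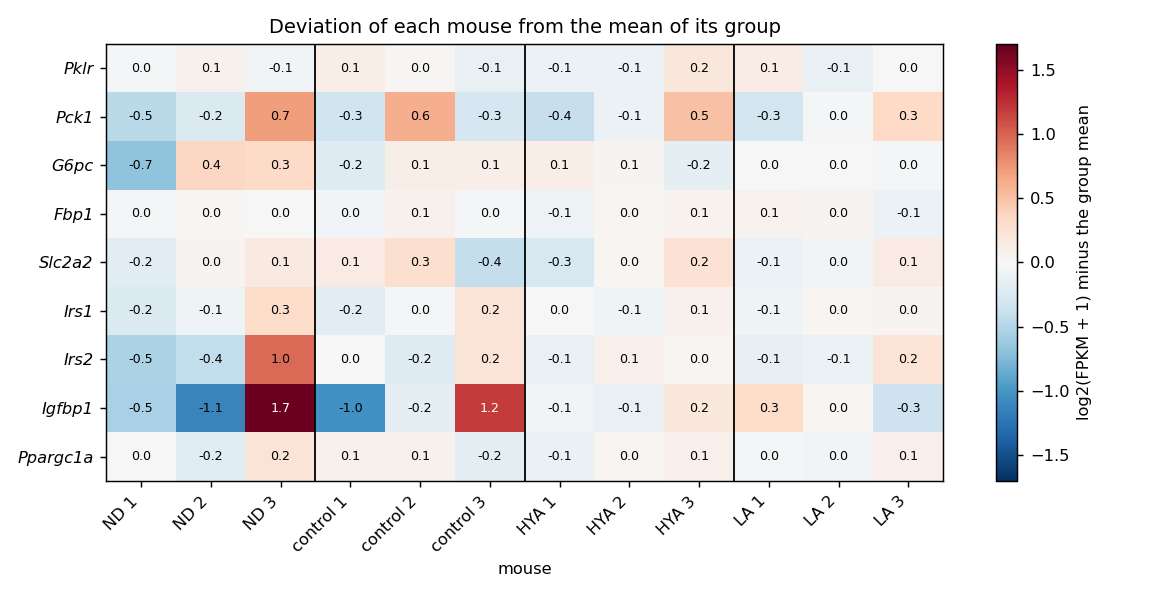
Deviation of each mouse (horizontal axis) from the mean of its group in log2(FPKM + 1), by colour and printed value, for the 9 genes (vertical axis). Red marks values above and blue values below the group mean. ND 3 is red in *Pck1*, *Irs2* and *Igfbp1*, with 1.67 for *Igfbp1*, and control 3 is red in *Igfbp1* and blue in *Slc2a2*.

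The daily clock also differed between mice of the same group. A clock index (the mean log2 level of *Dbp*, *Per3*, *Ciart* and *Nr1d2* minus that of *Arntl*, *Npas2*, *Clock* and *Cry1*, centred over the mice) was -0.74, -0.60 and -0.45 in ND-fed mice and 1.17, 1.45 and -1.86 in control mice. It was -0.54, 0.81 and 1.61 in HYA-treated and -1.32, -0.54 and 1.01 in LA-treated mice. Control mouse 3 stood apart from the other control mice. *Slc2a2* had the order of the clock index in all 12 pairs of mice within a group, as did 0.74% of tested genes. *Pck1* had it in 11 of 12 pairs, *Ppargc1a* in 10, *Irs1* in 9, *Irs2* in 8, *Pklr* and *Fbp1* in 7, *Igfbp1* in 5 and *G6pc* in 3. The median tested gene had it in 6 of 12. With the index as a covariate, an alternative chosen after the data were seen, the SD of *Slc2a2* within groups dropped from 0.25 to 0.10. The SD of *Pck1* went from 0.50 to 0.43, of *Ppargc1a* from 0.14 to 0.12, of *Pklr* from 0.13 to 0.12 and of *Igfbp1* from 0.94 to 0.91. It rose for *Irs2* (0.45 to 0.48), *G6pc* (0.32 to 0.33), *Irs1* (0.18 to 0.19) and *Fbp1* (0.069 to 0.073). The log2 fold change of control against ND-fed mice then turned from 0.10 to -0.056 for *Slc2a2* and from 0.10 to -0.10 for *Pck1*, with neither past the threshold, whereas *Pklr* kept its call (0.30, limma adjusted p = 0.0264) and *Fbp1* lost it (0.17, adjusted p = 0.0697). The part of the clock in these values was not tested further.

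The genes around these 9 were taken from 10 lists of glucose and insulin pathways with 246 genes, 205 of them tested. The lists, too, were chosen with earlier results of these data known. In control against ND-fed mice 48 were higher and 33 lower, which is 39.5% beside 35.3% of all tested genes, with a median log2 fold change of 0.040 against -0.043 over all genes. After rescaling to TPM, 222 genes of the lists passed the filter, of which 103 were higher and 15 lower. On that scale 87.3% of the list calls were higher, beside 85.1% of the calls over all genes, so the balance of directions depends on the scale as it does for all genes. List counts are given on both scales, each with its own number of tested genes. Each stands beside the share of all genes. On the FPKM scale 35.3% passed, with 16.2% of all tested genes higher. On the TPM scale 5192 of 13588 passed, and 85.1% of these calls were higher. No list was tested as a set, and a count near these shares is not a result about its list. Genes named next have a limma Benjamini-Hochberg adjusted p of 0.0220 or less on the FPKM scale, and their values are log2 fold changes with the SE.

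Of 24 glycolytic genes tested, 10 rose and 0 fell (21 and 0 of 27 on the TPM scale), led by *Hk2*, a hexokinase scarce in normal liver, at 1.70 (SE 0.13) and *Pkm*, the pyruvate kinase of other tissues, at 0.76 (SE 0.16). Of 26 gluconeogenic genes, 9 rose and 3 fell (16 and 2 of 27 with TPM). The largest rises there were *Pdk4*, a kinase that shuts pyruvate dehydrogenase, at 1.19 (SE 0.32) and the alanine transaminase *Gpt2* at 0.85 (SE 0.088), and the largest falls were the other alanine transaminase *Gpt* at -0.65 (SE 0.12) and *Mdh1*, the cytosolic malate dehydrogenase, at -0.50 (SE 0.081). Of 19 glycogen genes, 5 rose and 3 fell (8 and 2 of 20 with TPM). The list was matched by name and includes the gene listed as *Pgm1*, which RefSeq names *Pgm2* and which rose (0.76, SE 0.087). Its place on the list was not checked. *Gbe1*, the branching enzyme, was at 0.80 (SE 0.077) and *Pygb*, a glycogen phosphorylase, at 0.79 (SE 0.18), whereas *Ppp1r3c*, a glycogen-targeting phosphatase subunit, was at -1.18 (SE 0.35) and the liver phosphorylase *Pygl* at -0.52 (SE 0.092).

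Of 34 insulin signalling genes, 1 rose and 4 fell, and on the TPM scale 14 of 39 rose and 0 fell. The kinase *Mtor* was at 0.44 (SE 0.10), the receptor phosphatase *Ptprf* at -0.34 (SE 0.050) and the S6 kinase *Rps6kb1* at -0.33 (SE 0.091). The latter 2 did not pass on the TPM scale (-0.11 and -0.17). Of 31 FOXO and fasting transcription factors, 1 rose and 7 fell (5 and 4 of 32 with TPM), among them *Foxa3* at -1.04 (SE 0.11) and *Klf9* at -0.74 (SE 0.13), and *Lpin1* was at 1.31 (SE 0.35). Of 20 targets of FOXO and fasting, 4 rose and 0 fell (10 and 0 of 21 with TPM), led by the hormones *Fgf21* at 2.72 (SE 0.28) and *Gdf15* at 2.04 (SE 0.27).

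Of 13 genes of the glucagon receptor and cyclic AMP, 3 rose and 7 fell, and on the TPM scale, where 17 were tested, 8 rose and 2 fell. The adenylyl cyclases moved apart on both scales, with *Adcy7* at 0.53 (SE 0.11), *Adcy6* at 0.53 (SE 0.11) and *Adcy9* at -0.59 (SE 0.085). The phosphodiesterase *Pde3b*, which insulin activates, was at -0.43 (SE 0.10) and did not pass with TPM (-0.22). Of 25 genes of the ChREBP and SREBP1c response, 12 rose and 3 fell (16 and 1 of 25 with TPM). *Pnpla3* was at 2.68 (SE 0.24) and *Acacb*, which makes the malonyl-CoA that limits fat oxidation, at 1.30 (SE 0.13), whereas *Mlxipl*, the gene of ChREBP itself, was at -0.95 (SE 0.091). *Scap*, the escort of SREBP, was at -0.46 (SE 0.096) on the FPKM scale and did not pass with TPM (-0.25). *Pklr*, a known target of ChREBP, was higher as described above.

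Of 4 glucose and fructose transporters tested beside *Slc2a2*, *Slc2a8* was at -0.43 (SE 0.11) and *Slc2a1* at -0.36 (SE 0.10), and neither passed on the TPM scale, where 1 of 5 was higher and 0 were lower. Of 9 insulin-like growth factors and binding proteins tested beside *Igfbp1*, 3 rose and 4 fell (4 and 4 of 9 with TPM). *Igfals*, the acid-labile subunit that keeps growth factors in the circulation, was at -1.53 (SE 0.096) and *Igfbp2* at -1.13 (SE 0.26), whereas *Igfbp7* was at 0.92 (SE 0.13) and *Igfbp3* at 0.87 (SE 0.14).

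**Figure D5:**
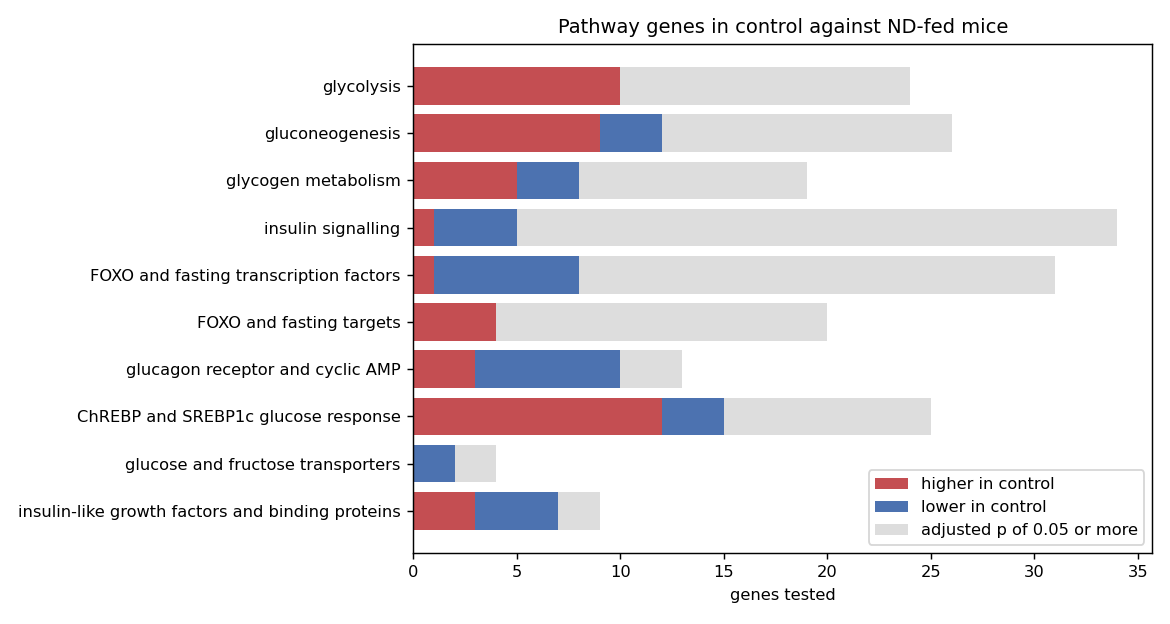
Number of genes tested (horizontal axis) on each of 10 pathway lists (vertical axis) in control against ND-fed mice, split by colour into higher in control, lower in control and adjusted p of 0.05 or more. The whole set has 48 higher and 33 lower genes on the FPKM scale that is drawn, and 103 higher and 15 lower after rescaling to TPM.

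In HYA-treated against control mice 8 of the 205 genes passed, which is 3.9% beside 2.8% of all tested genes. Higher in HYA-treated mice were 4, namely *Klf9* at 0.65 (SE 0.13, limma adjusted p = 0.0357), *Igfals* at 0.57 (SE 0.096, adjusted p = 0.0205), *Mlxipl* at 0.43 (SE 0.091, adjusted p = 0.0390) and *Adcy9* at 0.43 (SE 0.085, adjusted p = 0.0332). The other 4 were lower, namely the hexokinase *Hk2* at -0.64 (SE 0.13, adjusted p = 0.0357), the gene listed as *Pgm1* (ENSMUSG00000029171, on chromosome 5, a gene that RefSeq names *Pgm2*) at -0.45 (SE 0.087, adjusted p = 0.0310), *Gyg*, which primes glycogen, at -0.44 (SE 0.079, adjusted p = 0.0269) and *Pgd* of the pentose phosphate pathway at -0.37 (SE 0.083, adjusted p = 0.0448). With TPM, 2 of 222 genes were higher and 11 lower, where 496 of all 13588 tested genes passed. Of the list calls 15.4% were higher, beside 17.7% of the calls over all genes. *Mlxipl* (0.31) and *Adcy9* (0.36) did not pass on that scale. Leaving out control mouse 1, or mouse 2 or 3 of the HYA group, brought the 8 calls to 0, and leaving out mouse 1 of the HYA group brought them to 1. They numbered 20 without control mouse 2, 4 without control mouse 3, ND-fed mouse 2 or mouse 2 of the LA group, and 5 without mouse 3 of the LA group.

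In mean FPKM, *Igfals* was at 63.9 in ND-fed mice, 21.7 in control mice, 32.4 with HYA and 21.4 with LA, and *Mlxipl* at 83.3, 42.6, 57.6 and 45.4. *Hk2* was at 0.329, 3.34, 1.76 and 3.19 FPKM in the same order. In LA-treated against control mice 0 of the 205 genes passed in limma, and the adjusted p of each of the 8 genes was 0.999. Of the 8, *Igfals* also passed in the direct comparison of HYA-treated with LA-treated mice (0.58, SE 0.096, limma adjusted p = 0.0365), and it was the 1 gene of the 205 that did, beside 0.487% of all tested genes. That call was lost without a filter on low values (adjusted p = 0.0855) and when any 1 of 9 of the 12 mice was left out.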

How the data were processed

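Liver RNA of 12 mice, 3 each on ND, control, HYA and LA diets, was sequenced, and the authors deposited the FPKM of every gene in every mouse as 1 table. Per the labels, reads were processed with fastp, HISAT2 2.0.5 and featureCounts 1.5.0-p3 on GRCm38, in no stated role or order. The methods name TPM, but the deposited FPKM columns have different totals. The annotation release, the library scaling and the strand setting of the counting are not given in the sources used here. Start and end of 98.3% of shared gene identifiers, and of all 9 genes described, were identical to GENCODE M21. Values multiplied by gene length were whole multiples of 1 step (100% within a tolerance of 0.02), read as fragments.

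limma 3.58.1 in R 4.3.3 (empirical Bayes with trend, two-sided) was fitted to log2(FPKM + 1) of 11083 genes (mean FPKM of 1 or more), with all 12 mice and 4 group means in 1 fit, and p-values were adjusted by Benjamini-Hochberg over all of them. Fold changes are on the log2(FPKM + 1) scale and understate those of scarce genes. The fit was also run on simulated data, with changes larger than those called for *Pklr* and *Fbp1* and the same dispersion for every gene. That run does not show how the fit performs for small changes or for genes with a wide spread. The genes, the 10 lists and the rules were chosen with earlier results of these data known. Named list genes are all genes called in HYA against control, LA against control or HYA against LA, and in control against ND the 2 largest called changes per list and direction. Likeness was the root mean square difference of centred log2(FPKM + 1). Alternatives were pseudocounts of 0.1 and 10, no filter or a minimum mean of 5 FPKM, median-ratio size factors, TPM, only the compared groups, a replicate block, limma-voom on recovered fragments, a further threshold of 1 on the absolute log2 fold change, and each mouse omitted in turn. The clock index as a covariate was added after seeing the data. Intervals of fragments cover counting error only. Promoter sequences are from RefSeq (GRCm38.p6).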

Additional observations from a re-analysis of the deposited data

Results flagged for a closer look

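*Igfals* differed between HYA-treated and LA-treated mice. Both were given in the same high-fat diet, and the direct comparison of HYA-treated with LA-treated mice gave a log2 fold change of 0.58 (SE 0.096, limma with Benjamini-Hochberg adjustment, adjusted p = 0.0365), or 0.47 on the TPM scale (adjusted p = 0.0440). The call was lost without a filter on low values (adjusted p = 0.0855) and when any 1 of 9 of the 12 mice was left out (log2 fold change 0.54 to 0.64 over all 12 omissions, highest adjusted p 0.185). Against the shared control mice it was 0.57 for HYA and -0.0066 for LA. None of the 9 genes at the centre of the report passed this test.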

How the results depend on the processing

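Of 1170 values of the 9 genes under an alternative, 1094 kept direction and side of the threshold, 17 lost it, 23 gained it and 36 changed sign. Most main values were under the threshold, and omitting a mouse outside the 2 compared groups cannot change an estimate. These totals therefore do not measure how firm the calls are. In control against ND the call of *Fbp1* was lost in 15 of 22 alternatives and that of *Pklr* in 2 of 22. Members called in control against ND were 2, 3 with limma-voom (*Igfbp1* added), and 1 with a pseudocount of 10, no filter, median-ratio size factors, only the 2 groups or the clock index, 0 with the fold threshold, and 0 to 3 with a mouse left out. HYA against control gave 0, and 1 with TPM or limma-voom. HYA against ND gave 0, 2 with TPM or limma-voom and 0 to 2 with a mouse left out. LA against ND gave 1, 2 with TPM or limma-voom, 0 with the fold threshold and 1 to 3 with a mouse left out. LA against control and HYA against LA stayed at 0 under every alternative.

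List genes called in control against ND were 81, and 17 with the fold threshold, which 3.88% of all tested genes passed. HYA against control gave 8, 1 without a filter, 13 with TPM, 0 with only the 2 groups, 19 with limma-voom, 14 with the clock index, 0 with the fold threshold and 0 to 20 with a mouse left out. HYA against LA gave 1, 0 without a filter or with the fold threshold, 4 with a filter of 5 FPKM, 5 with TPM or only the 2 groups, 8 with limma-voom and 0 to 7 with a mouse left out. HYA against ND gave 52 and LA against ND 81, and 7 and 13 with the fold threshold.

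With the replicate number as a block, members called were 3 in control against ND and 1 in HYA against ND, with *Irs1* added in both (adjusted p = 0.0437 and 0.0216), and list genes called were 13 in HYA against control and 4 in HYA against LA. Neither labels nor methods say that a replicate number joins mice of different groups, so the main fit had no block. Same-numbered mice correlated above 0.1 in 3 of 18 pairs (-0.40 to 0.29). Of the 12 mice, 2 matched best with their own number. With 3 mice a group, these values do not settle whether the numbers pair mice.

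Signs turned only for values under the threshold, except *Irs2* in LA against ND without ND-fed mouse 3. With the clock index these were *Pck1* -0.10 and *Slc2a2* -0.056 in control against ND, *Slc2a2* -0.061 and *Igfbp1* 0.16 in HYA against LA and *Pck1* -0.064 in HYA against ND. With TPM they were *Irs2* -0.10 in HYA against control, *Slc2a2* -0.010 in HYA against LA, and *Irs1* 0.020 and *Irs2* 0.19 in LA against ND. With limma-voom they were *Irs2* -0.075 in HYA against control and 0.18 in LA against ND, and with a pseudocount of 0.1 *Irs2* 0.021 in LA against ND. The cause was not tested. With a mouse left out, genes whose sign turned had these ranges. In control against ND they were *Pck1* -0.21 to 0.46 and *Slc2a2* -0.035 to 0.31. In HYA against control they were *Pck1* -0.12 to 0.44, *Slc2a2* -0.080 to 0.26 and *Irs2* -0.10 to 0.12. In LA against control they were *Pklr* -0.016 to 0.11, *G6pc* -0.053 to 0.11, *Slc2a2* -0.19 to 0.16 and *Igfbp1* -1.05 to 0.067. In HYA against LA they were *Fbp1* -0.081 to 0.012, *Slc2a2* -0.012 to 0.24 and *Igfbp1* -0.31 to 0.015. In HYA against ND they were *Pck1* -0.016 to 0.59. In LA against ND they were *Irs2* -0.30 to 0.44.

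With 3 mice a group and these depths, scarce genes and those with a wide spread were the least resolved. Rescaling to TPM moved the median of all genes in control against ND from -0.043 to 0.18, and limma-voom also shifts all genes upward there. Small differences thus have no direction free of the scale. Diet, body state and cell makeup cannot be told apart in these groups.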

Other observations

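Of the cell types that a piece of liver can hold, markers of monocyte-derived macrophages also moved with diet. Their sum was 12.1 to 18.6 FPKM in ND-fed, 33.5 to 44.0 in control, 21.6 to 26.7 in HYA-treated and 33.2 to 38.5 in LA-treated mice, and 4 of the 4 tested markers rose in control against ND-fed mice and 3 fell in HYA-treated against control mice. Kupffer cell markers summed to 131 to 207, 161 to 184, 123 to 179 and 176 to 186 FPKM in the same order of groups, and of the 6 tested 1 rose and 2 fell in control against ND-fed mice. Of 6 pancreatic markers 5 were under 1 FPKM in every mouse, 4 of them at 0 throughout. The remaining marker, *Cela1*, was at 3.91 to 11.3 FPKM over the 12 mice and fell in control against ND-fed mice. The part of these cells in the values of the 9 genes was not tested.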
